A study of Mus musculus with 4 samples.

Results

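Smooth muscle cells and myofibroblasts of the mouse small intestine were taken here as barcodes with muscle transcripts, from single-cell RNA-Seq of lamina propria cells. Members had at least 500 UMIs (unique molecular identifiers, each counting 1 captured RNA molecule), 200 to 2500 detected genes and at most 15% mitochondrial UMIs. They held at least 8 UMIs over the 5 genes *Des*, *Myh11*, *Actg2*, *Acta2* and *Tagln*, at least 3 of them from *Des*, *Myh11* and *Actg2*, no UMI of the pericyte gene *Rgs5*, and at most 1 UMI over the T cell genes *Cd3e*, *Cd3d*, *Cd3g*, *Trac* and *Trbc2*. By this rule 1429 of 60396 barcodes past the filters were members, 1031 of 22148 in the WT library and 398 of 38248 in the A20ZF7 library.

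The libraries came from 12-week-old mice and were made with a 5′ kit, 1 per genotype, each pooling cells of 2 mice. A20ZF7 mice are homozygous for knock-in point mutations in the seventh zinc finger of A20 (gene *Tnfaip3*), an inhibitor of NF-κB signaling, that abolish its binding to linear ubiquitin. The mutation is in the germ line, so the muscle cells carry it as the immune cells do, and the WT mice lack it. Cells came from the proximal small intestine and were negatively selected for T cells and innate lymphoid cells, so a share of barcodes is a share of what this step left and not of the tissue.

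With 1 library per genotype no test between genotypes was possible: 95% intervals below are exact and cover counting error only, and nothing is known of the spread between A20ZF7 mice. The only view of the spread between animals comes from hashtag antibodies, which mark the mouse of origin and were read in the WT library. Members held 1365053 UMIs in WT and 466245 in A20ZF7, with medians of 1128 and 1041.5 UMIs and 723 and 693 genes per member. Of 1196 barcodes that passed the filters in both libraries, 1 was a member in both.

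Smooth muscle shortens when calcium bound to calmodulin activates myosin light chain kinase, which phosphorylates the regulatory light chain of myosin and lets it pull on actin. In the gut wall such cells form the muscle layers, the muscularis mucosae, thin strands along the villus core and the coat of blood vessels. Myofibroblasts share the contractile actin and also make matrix. Many contractile genes are switched on by serum response factor with its cofactor myocardin, and serum response factor binds a DNA element called the CArG box.

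The CArG box was looked up in RefSeq promoters (mouse build GRCm38.p6, 250 bases before to 50 after each transcription start), as sequence background to the genes described below. The pattern was CC, then 6 bases of A or T, then GG, with no mismatch allowed. Searched on both strands, which for this palindromic motif are one search, it was present for 488 of 27025 gene symbols (1.81%). Of 28 genes of a contractile list, 26 matched the table and 6 of these held the box (23.1%), as did 4 of 16 matched genes of a list of muscle transcription regulators (25%), 1 of 26 matrix genes (3.85%) and 0 of 20 genes for muscle excitation. Of the gate genes, *Des* and *Acta2* matched the table, and neither had an exact match to the pattern in this window. That says nothing of sequence outside the window, nor of boxes inside it that deviate from the pattern, which this search misses. The 6 sites are shown on the strand of the gene, with the box in capitals and 15 bases on either side.
Myl9, regulatory myosin light chain, chr2:156775288-156775327, plus strand: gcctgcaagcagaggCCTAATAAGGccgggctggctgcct
Cnn2, calponin 2, chr10:79988529-79988568, plus strand: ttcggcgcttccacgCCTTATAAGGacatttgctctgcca
Myl6, essential myosin light chain, chr10:128493035-128493074, minus strand: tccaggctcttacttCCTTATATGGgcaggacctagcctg
Vcl, vinculin, chr14:20929156-20929195, plus strand: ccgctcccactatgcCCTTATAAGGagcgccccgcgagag
Filip1l, filamin A interacting protein 1-like, chr16:57549165-57549204, plus strand: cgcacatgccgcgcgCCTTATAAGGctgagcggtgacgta
Dmd, dystrophin, chrX:82948757-82948796, plus strand: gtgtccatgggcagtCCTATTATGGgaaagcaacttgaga
*Vcl*, *Cnn2* and *Filip1l* carried the same 10 bases. A match is a description of sequence and not evidence of binding in these cells.

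Members made up 4.66% of WT barcodes (4.38 to 4.94) and 1.04% of A20ZF7 barcodes (0.941 to 1.15), a ratio of A20ZF7 to WT of 0.224 (0.199 to 0.251). The T cell clause of the rule removed a larger part of the muscle barcodes in A20ZF7. Barcodes that failed only this clause numbered 143 in WT and 220 in A20ZF7, beside 1031 and 398 members. No setting run left the clause out, so the ratio holds for the rule as given. Muscle barcodes that had failed the rule only by holding *Rgs5* were lower in A20ZF7 as well, at 3.21% in WT and 0.601% in A20ZF7. Fibroblast barcodes, which held at least 8 UMIs over *Dcn*, *Lum*, *Col1a1*, *Col1a2*, *Col3a1* and *Pdgfra* at most 2 UMIs of the 5 muscle genes and at most 1 of the T cell genes, differed less, at 21.5% and 17.2%. There were thus 21.6 members per 100 fibroblast barcodes in WT and 6.06 in A20ZF7, but 145 and 173 members per 100 *Rgs5*-positive muscle barcodes. Within WT, 84 members were called for mouse 1 (2.10% of its barcodes; 1.68 to 2.60) and 118 for mouse 2 (2.03%; 1.68 to 2.43), so the mice did not differ beyond counting error. No hashtag call was made for 10366 of the 22148 WT barcodes, and for 786 of the 1031 WT members (76.2%). The shares within each called mouse are therefore lower than the share of the whole library, though still above the A20ZF7 share. In the plot of shares these WT values sit beside each other.

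**Figure D1:**
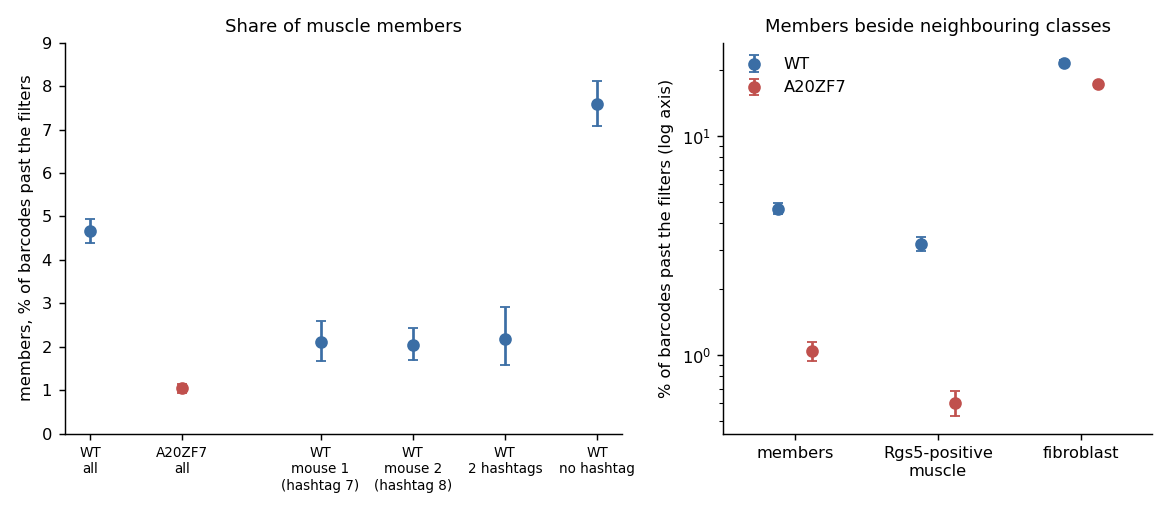
Left, members as a percentage of barcodes past the filters in each library and, for WT, by hashtag call; right, members, *Rgs5*-positive muscle and fibroblast barcodes as percentages on a log axis. Points are values of 1 library and bars are exact 95% binomial intervals. The WT value of 4.66% lies above the A20ZF7 value of 1.04%, and the 2 WT mice overlap.

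Members were selected on the UMIs of the 5 muscle genes, whose values are given as a description only. *Acta2* and *Tagln*, vascular and visceral smooth muscle actin and the actin-binding protein transgelin, were the most abundant, at 11503 and 9188 CPM (the UMIs of a gene as a rate over 1000000 UMIs) in WT members and 8336 and 6440 CPM in A20ZF7 members. *Myh11*, the smooth muscle myosin heavy chain, stood at 4618 CPM (WT) and 4202 CPM (A20ZF7). *Des*, the intermediate filament desmin, stood at 1115 and 1051 CPM, and *Actg2*, the enteric smooth muscle actin, at 728 and 719 CPM. *Myh11*, *Acta2* and *Tagln* had a UMI in at least 98.2% of members of either library, whereas *Actg2* was found in 47.2% of WT and 44.2% of A20ZF7 members. The sum over the 5 genes had a median of 31 UMIs in WT members and 20 in A20ZF7 members. Just outside the threshold, at 7 UMIs, were 8 WT and 11 A20ZF7 barcodes, and just inside, at 8 UMIs, were 15 and 11.

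Genes that the rule had not used gave the members a smooth muscle profile. All 28 genes of the contractile list were measurable, and 26 of them were at least 2-fold higher in members than in fibroblast barcodes in each library, where 17.3% of all genes tested in WT and 12.8% in A20ZF7 were that much higher. *Myl9* stood at 4725 CPM in WT members against 94.7 CPM in WT fibroblast barcodes, and at 3749 against 56.7 CPM in A20ZF7. *Myl6* was higher still, at 9493 CPM in WT and 7283 CPM in A20ZF7 members. *Mylk*, the light chain kinase, was found in 90.2% of WT and 80.7% of A20ZF7 members, at 2383 and 1979 CPM. *Cnn1*, which encodes calponin 1 and binds actin, stood at 391 and 343 CPM in members and at 2.20 and 2.19 CPM in fibroblast barcodes. Levels are set between genes on a scale of 5′ UMIs, in which 1 transcript gives at most 1 count whatever its length. In the plot of contractile genes, members stand above fibroblast barcodes for every list gene drawn but *Parva*, an adhesion protein gene. There fibroblast barcodes are higher in both libraries (172 against 151 CPM in WT).

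**Figure D2:**
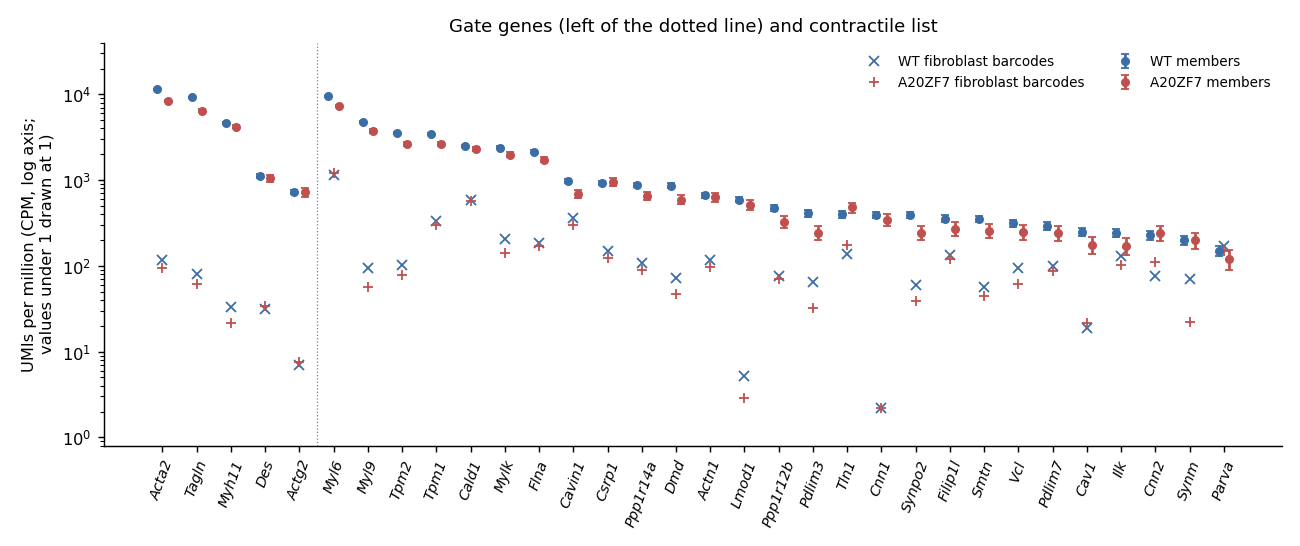
CPM on a log axis of the 5 gate genes and 27 genes of the contractile list, for members (circles, with exact 95% Poisson intervals) and fibroblast barcodes (crosses). Among the 27 list genes, members exceed fibroblast barcodes at all but *Parva*. WT members lie above A20ZF7 members at most of them, for example *Myl9* at 4725 and 3749 CPM. The 5 gate genes differ between these barcodes by the rules that chose them, and list genes expressed with them may do so in part.

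The genes with the largest ratios over fibroblast barcodes were those of vascular as well as general smooth muscle. *Pln* encodes phospholamban, the inhibitor of the calcium pump of the sarcoplasmic reticulum, and stood 335-fold (WT) and 332-fold (A20ZF7) above fibroblast barcodes. *Notch3*, a receptor of vascular smooth muscle and pericytes, stood 359-fold and 177-fold above them, and *Mcam*, a surface adhesion molecule of mural cells, 154-fold and 100.5-fold. *Lmod1*, an actin nucleator of smooth muscle, stood 113-fold and 178-fold above them, and *Sorbs2*, an adaptor at actin attachment sites, 165-fold and 218-fold. *Map3k7cl*, *Pcp4l1*, *Cnn1*, *Nrip2* and *Rasl12* completed the 10 highest. Denominators were small, from 2 UMIs (*Nrip2* in WT fibroblast barcodes, where the ratio of 607 has an interval of 167 to 5039) to 34 UMIs (*Sorbs2*), so no order is read among these genes.

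The label needs a qualification on this point. Of 14 pericyte and vascular smooth muscle genes, 11 reached 100 CPM in members, and their summed level in members was 2843 CPM in WT and 2403 CPM in A20ZF7, close to the 2683 and 1968 CPM of *Rgs5*-positive muscle barcodes. *Notch3* was found in 38.2% of WT and 33.4% of A20ZF7 members. The pericyte channel genes *Kcnj8* and *Abcc9* were low, at 9.55 and 25.7 CPM in WT members. Between members and *Rgs5*-positive muscle barcodes only 2.65% of genes tested in WT and 4.54% in A20ZF7 differed by 2-fold or more in either direction, against 37% and 27.6% between members and fibroblast barcodes, where 19.8% (WT) and 14.8% (A20ZF7) were lower in members. In WT, 0.959% stood higher and 1.69% lower than in *Rgs5*-positive muscle, and in A20ZF7 1.6% and 2.95%. The *Rgs5*-positive barcodes held a median of 2 *Rgs5* UMIs, and 39.0% of those in WT held exactly 1. At this depth a count of 0 *Rgs5* UMIs does not show that the cell lacked *Rgs5*. The members are therefore described as muscle barcodes without a detected *Rgs5* UMI, with genes of visceral and of vascular muscle.

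Fibroblast genes were not absent from members. A UMI of the 6 fibroblast gate genes was found in 52.3% of WT and 51.3% of A20ZF7 members, and 248 WT members (24.1%) and 94 A20ZF7 members (23.6%) held 3 or more. *Dcn*, the proteoglycan decorin, stood at 816 and 1278 CPM in members, below its 900 and 1206 CPM in free RNA for WT but not for A20ZF7. Free RNA here means barcodes with 1 to 50 UMIs, too few to be cells. Against it, 29.7% of genes tested in WT stood at least 2-fold higher in members and 17.7% lower (47.4% in either direction), and 20.8% and 12.9% in A20ZF7 (33.7%). Members with 3 or more fibroblast UMIs were also deeper, with a median of 1540.5 UMIs in WT against 999.5 for those with none. Whether they are myofibroblasts, doublets or muscle cells with free RNA was not tested.

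Inside the members, *Hhip*, *Npnt* and *Cnn1* stood higher and *Notch3* lower where *Actg2* was detected. WT members with an *Actg2* UMI held *Hhip*, a hedgehog-binding protein, at 787 CPM (723 to 856), against 195 CPM (163 to 232) in WT members without one. In A20ZF7 members the levels were 522 CPM (428 to 629) and 167 CPM (120 to 226). *Npnt*, the matrix protein nephronectin, showed the same order, at 247 against 48.1 CPM in WT and 187 against 93.6 CPM in A20ZF7. *Notch3* showed the opposite order, at 355 CPM with *Actg2* and 501 CPM without in WT, and 292 against 468 CPM in A20ZF7. *Cnn1* was higher with *Actg2*, at 513 against 263 CPM in WT and 464 against 240 CPM in A20ZF7. None of the counting intervals of these 4 genes overlapped within a library apart from those of *Npnt* in A20ZF7. The list of 14 mural genes, *Notch3* included, also summed lower with *Actg2*, at 2559 CPM (2441 to 2680) against 3140 CPM (3007 to 3278) in WT and 2173 CPM (1977 to 2382) against 2599 CPM (2402 to 2809) in A20ZF7. Among its genes, *Mcam* and *Pdgfrb* did not differ beyond counting error: *Mcam* was at 547 CPM with *Actg2* and 498 CPM without in WT and at 459 and 423 CPM in A20ZF7, and *Pdgfrb*, a growth factor receptor of pericytes, at 151 and 174 CPM in WT and 115 and 114 CPM in A20ZF7, all with overlapping intervals. The *Actg2*-positive members were slightly deeper, with median UMIs of 1209 against 1057.5 in WT.

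*Hhip* and *Notch3* also parted along the fibroblast UMIs. In WT, *Hhip* stood at 99.8 CPM in members with no fibroblast UMI, 292 CPM with 1 or 2, and 1251 CPM with 3 or more, while *Notch3* stood at 595, 454 and 162 CPM. *Notch3* had the same order in A20ZF7, at 547, 378 and 177 CPM. *Hhip* did not, since in A20ZF7 it was highest with 1 or 2 fibroblast UMIs, at 608 CPM (478 to 764), and stood at 460 CPM (355 to 587) with 3 or more. Its 150 UMIs in A20ZF7 lay in 41 members, of which 10 held 52.7% (19.9% in WT), so this order and the list ratios that follow rest on few barcodes. The 7 genes listed for lamina propria muscle, *Hhip* among them, accordingly summed to 1936 CPM in WT and 849 CPM in A20ZF7 members with 3 or more fibroblast UMIs, a ratio of 0.439 (0.359 to 0.532). With 1 or 2 fibroblast UMIs the ratio of this list went the other way, at 1.28 (1.06 to 1.53), with none it was 0.816 (0.649 to 1.02), and over all members it was 0.745 (0.665 to 0.832).

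Between genotypes, 1921 genes reached 100 CPM and 20 UMIs in the higher library. Of these, 126 were at least 2-fold higher in A20ZF7 members (6.56%) and 40 at least 2-fold lower (2.08%), and the median log2 ratio of A20ZF7 over WT was -0.02. The 2 WT mice differed from each other to a similar extent, with 87 of 1626 genes higher in mouse 2 (5.35%) and 30 lower (1.85%), on far fewer UMIs. Of the 126 genes, 79 (62.7%) were also at least 2-fold higher in A20ZF7 fibroblast barcodes and 16 (12.7%) in free RNA, and of the 40 genes, 24 (60%) were lower there and 28 (70%) lower in free RNA. The shares called were close to those in fibroblast barcodes, where 5.02% of genes were higher and 2.51% lower. In either direction the shares were 8.64% in members, 7.53% in fibroblast barcodes and 7.2% between the WT mice.

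Contractile genes stood lower in A20ZF7 members than in the pooled WT members, but not lower than in both WT mice. None of the 28 passed 2-fold, beside 8.64% of all genes tested. Their summed level was 37823 CPM in WT members and 30122 CPM in A20ZF7 members, a ratio of 0.796 (0.781 to 0.812), and the median log2 ratio was -0.36 beside -0.02 over all genes tested. The ratio was below 1 for 24 of the 28 and above 1 for 4, where 48.5% of all genes tested had a ratio above 1. The counting interval lay below 1 for 20, compared with 21.8% of all genes tested. WT members called for mouse 1 summed to 33167 CPM and those called for mouse 2 to 27678 CPM, so the A20ZF7 value lay between the mice. *Tpm2*, a tropomyosin of the thin filament, stood at 3510 CPM in WT (3188 in mouse 1 and 2206 in mouse 2) and 2614 CPM in A20ZF7. *Dmd*, which anchors the filaments to the membrane, stood at 862 and 589 CPM, and *Synpo2* at 389 and 242 CPM. *Csrp1*, *Synm*, *Tln1* and *Cnn2* had ratios above 1. *Myl9*, too, was at 3969 and 3279 CPM in the mice, with A20ZF7 between them. For this list both called mice stood below the pooled WT level, and most of the pool is members with no hashtag call. In *Rgs5*-positive muscle barcodes the summed contractile level was 34206 CPM in WT and 29475 CPM in A20ZF7.

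Of 20 measurable genes for excitation and relaxation, 1 was at least 2-fold lower and none higher, where 2.08% of all genes tested were lower. That gene was *Ramp1*, a subunit of the receptor for calcitonin gene-related peptide, at 184 CPM in WT members (143 in mouse 1, 132 in mouse 2) and 79.2 CPM in A20ZF7, a ratio of 0.43 (0.30 to 0.61). It was 0.66 with at most 5% mitochondrial UMIs and 0.54 without members holding a UMI of another cell class's marker, so the call depends on the setting. *Pln* stood at 454 and 273 CPM (ratio 0.60; 0.49 to 0.73) and its partner, the calcium pump gene *Atp2a2*, at 535 and 453 CPM (0.85; 0.72 to 0.99). *Prkg1*, the kinase through which nitric oxide and cyclic GMP relax muscle, stood at 661 and 488 CPM. *Rock1*, a kinase that sustains contraction, stood at 461 and 512 CPM with an interval of the ratio that spans 1 (0.95 to 1.29). The muscle coactivator *Myocd* was at 260 CPM in WT and 174 CPM in A20ZF7, a ratio of 0.67 (0.52 to 0.85). Against WT mouse 1 and mouse 2, in that order, A20ZF7 was below both for *Pln* (495 and 343 CPM) and *Myocd* (263 and 294 CPM) and between them for *Atp2a2* (345 and 471 CPM) and *Prkg1* (713 and 431 CPM). The summed excitation list was also between the mice, at 5987 CPM in A20ZF7 and 6407 and 5867 CPM in the mice, as was the list of muscle transcription regulators, at 2555 CPM against 2543 and 2671 CPM.

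Several of the lowest ratios belonged to genes found mainly in muscle barcodes. *Rergl* and *Rasl11a*, which encode small Ras-like GTPases, stood at 194 and 295 CPM in WT members and 77.0 and 106 CPM in A20ZF7 members. *Rergl* was at 173 CPM in WT mouse 1 and 181 CPM in mouse 2, both above A20ZF7, and its ratio of 0.40 (0.27 to 0.57) was matched by 0.37 in *Rgs5*-positive muscle. The ratio of *Rasl11a* was 0.36 (0.26 to 0.48) in members and 0.40 in *Rgs5*-positive muscle, but 0.9997 in fibroblast barcodes. *Pcp4l1*, a small protein related to a calmodulin regulator, stood at 497 CPM (WT) and 248 CPM (A20ZF7), with 458 and 343 CPM in the mice. *Nrip2* stood at 206 and 101 CPM, with ratios of 0.49 in members and 0.51 in *Rgs5*-positive muscle. *Igf1*, the growth factor, and *Rbms3*, an RNA-binding protein, are also fibroblast genes here and were lower in members, at ratios of 0.44 and 0.46, with ratios of 0.94 and 1.20 in *Rgs5*-positive muscle. *Chchd10*, *Lsamp* and *Hebp1* also stood among the lowest, on 21, 22 and 21 UMIs in A20ZF7 members. Under the other settings *Rasl11a* stayed between 0.303 and 0.441, whereas *Nrip2* reached 0.86, *Pcp4l1* 0.58, *Rergl* 0.52, *Igf1* 0.64, *Rbms3* 0.73, *Chchd10* 0.72, *Lsamp* 0.74 and *Hebp1* 0.68.

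**Figure D3:**
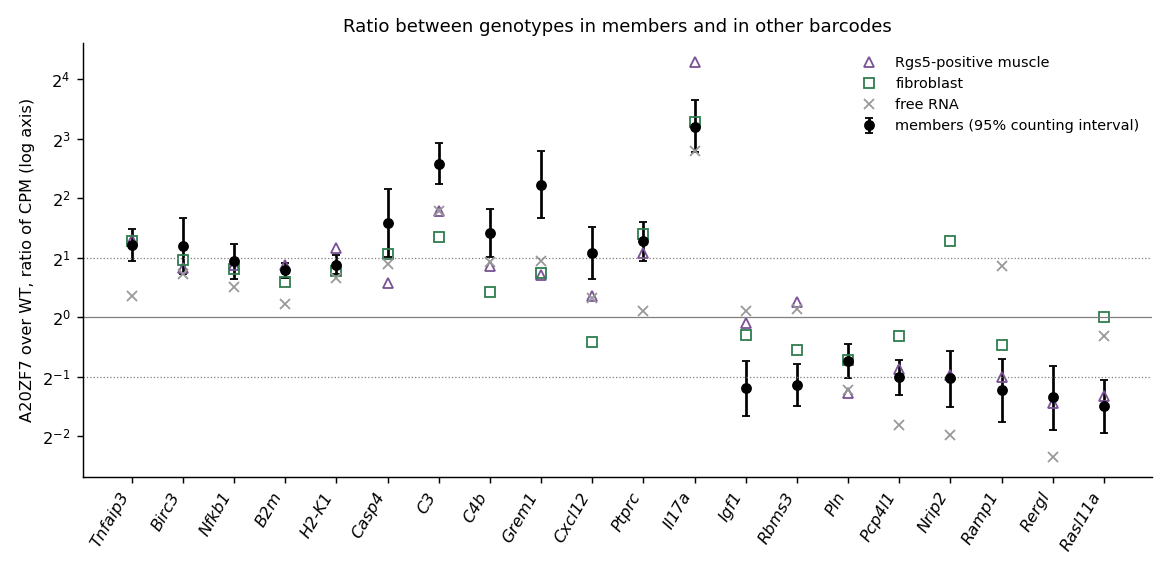
Ratio of CPM in A20ZF7 over WT on a log axis for 20 named genes, in members (black, with exact 95% intervals), *Rgs5*-positive muscle, fibroblast barcodes and free RNA; dotted lines mark 2-fold. *Rergl* and *Rasl11a* are low in both kinds of muscle barcode. *Tnfaip3* is at least 2-fold higher in members, *Rgs5*-positive muscle and fibroblast barcodes, but not in free RNA. *Rergl* has no fibroblast value because WT fibroblast barcodes held no UMI.

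Among genes above free RNA in the higher library, *Plac9* had the lowest and *Ndufb4* the highest ratio, and neither was particular to muscle. *Plac9* stood at 2243 CPM (WT) and 11.0 CPM (A20ZF7) in members, at 1990 and 8.21 CPM in fibroblast barcodes, and at 271 and 1.47 CPM in free RNA. *Ndufb4* was 8.79-fold higher in A20ZF7 members, 7.19-fold in fibroblast barcodes and 14.9-fold in free RNA. The libraries were counted against unlike gene lists, of 33696 and 32285 IDs with 31950 in common, and a difference in gene models cannot be told apart from genotype at such genes.

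Of 18 listed genes of NF-κB signaling, 4 were measurable, all with counting intervals above 1 for A20ZF7 over pooled WT members. That held for 21.7% of all genes tested. Of these 4, *Tnfaip3* and *Birc3* were at least 2-fold higher, where 6.56% of all genes tested were. With at most 5% mitochondrial UMIs neither passed 2-fold, at ratios of 1.78 and 1.82. *Tnfaip3*, which encodes A20 itself, stood at 201 CPM in WT members (308 in mouse 1, 363 in mouse 2) and 466 CPM in A20ZF7, a ratio of 2.32 (1.93 to 2.78). *Birc3*, a ubiquitin ligase of the TNF receptor complex, stood at 66.8 and 154 CPM, and *Nfkb1*, a subunit of NF-κB, at 186 and 356 CPM. *Nfkbia*, the inhibitor of NF-κB, stood at 246 CPM in WT, with 353 and 309 CPM in the mice, and 378 CPM in A20ZF7. All 4 genes were lower in members than in the free RNA of the same library, where *Tnfaip3* stood at 668 CPM (WT) and 855 CPM (A20ZF7). Fibroblast barcodes held *Tnfaip3* at 194 and 469 CPM, nearly the levels of members. Lymphocyte genes moved the same way: the leukocyte gene *Ptprc* stood at 126 and 303 CPM in members and the T cell cytokine gene *Il17a* at 44.1 and 405 CPM, with ratios of 2.42 and 9.18 in members and 2.62 and 9.69 in fibroblast barcodes. Of 14 lymphocyte genes, 7 were measurable and 4 were at least 2-fold higher (*Ptprc*, *Il17a*, *Cd28* and *Coro1a*, beside 6.56% of all genes tested). *Coro1a* fell under 2-fold in 1 or more other settings, to 1.78. None of the measurable lymphocyte genes was above free RNA, whereas 61.2% of all genes tested were above it in A20ZF7 members. *Cd52* had the most UMIs of the list. The summed lymphocyte list stood at 951 CPM in pooled WT members, 1771 and 1956 CPM in the WT mice and 2054 CPM in A20ZF7. The summed NF-κB list stood at 1114, 1658, 1529 and 2054 CPM in the same order. For both lists, *Tnfaip3* and *Nfkbia*, both called mice stood above the pooled WT level, so A20ZF7 exceeded each mouse by less than the pool. Most of the pool is members with no hashtag call. A UMI of the lymphocyte markers was found in 15.8% of WT and 37.9% of A20ZF7 members. The part of such RNA in the NF-κB values was not tested.

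All 12 measurable genes of interferon response and MHC class I had ratios above 1, and 11 had counting intervals above 1, compared with 21.7% of all genes tested. The median log2 ratio was 0.70. *B2m*, the light chain of MHC class I, stood at 992 CPM in WT members (1140 and 1534 in the mice) and 1717 CPM in A20ZF7, a ratio of 1.73 (1.58 to 1.89). *H2-K1*, a heavy chain, stood at 631 CPM (780 and 931 in the mice) and 1163 CPM. *Ifitm3*, an antiviral membrane protein, stood at 912 and 1260 CPM and was above its free RNA level of 683 CPM in A20ZF7. *Gbp2* and *Bst2* were also above free RNA there, and the other 9 were not, beside 61.2% of all genes tested that were. In members without any fibroblast UMI the summed interferon list stood at 3678 CPM (WT) and 5989 CPM (A20ZF7), a ratio of 1.63 (1.51 to 1.75), close to the ratio of 1.61 over all members. The WT mice summed to 5146 and 6465 CPM over the list and A20ZF7 members to 7412 CPM, above both mice, while the pooled WT value was 4603 CPM. Members without any fibroblast UMI still held RNA of other cells, and their lymphocyte list had a ratio of 2.37 (2.09 to 2.69). The source of the interferon difference was not tested.

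Of 32 signals to the epithelium listed, 7 were measurable, 2 were at least 2-fold higher and 1, *Igf1*, lower, where 6.56% and 2.08% of all genes tested were. *Grem1*, a BMP antagonist that supports crypt stem cells, stood at 33.8 CPM (WT) and 158 CPM (A20ZF7) in members, a ratio of 4.69 (3.19 to 6.94), but it was found in only 2.42% of WT and 6.78% of A20ZF7 members. *Areg*, an EGF receptor ligand, stood at 66.8 and 143 CPM and was higher in free RNA. Of 21 IL-17 response genes, 4 were measurable and 1, the chemokine *Cxcl12*, was 2.11-fold higher in A20ZF7 members (6.56% of all genes tested were at least 2-fold higher), where WT mouse 1 and mouse 2 stood at 120 and 39.2 CPM. This call was lost under 6 of the other settings, with a ratio as low as 1.01 after thinning. The neutrophil chemokine genes *Cxcl1* and *Cxcl2* held 8 and 8 UMIs in A20ZF7 members. Complement *C3* was 5.96-fold higher in members (77.9 and 464 CPM), 2.54-fold in fibroblast barcodes and 3.45-fold in free RNA, and *C4b* 2.67-fold in members (82.3 and 220 CPM). *Casp4*, an inflammatory caspase, stood at 39.7 and 119 CPM, *Fabp4* at 176 and 352 CPM, and *Glcci1*, *Ece1* and *Mia3*, the rest of the 10 highest, at ratios of 2.93, 2.44 and 2.33. *C3* and *Grem1* stayed at least 2.37-fold and 2.24-fold higher under the settings run, whereas *Casp4*, *C4b*, *Fabp4*, *Areg*, *Glcci1*, *Ece1* and *Mia3* fell under 2-fold in 1 or more, to between 1.07 (*Glcci1*) and 1.80 (*Ece1*).

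Of 12 measurable fibroblast genes, 10 had ratios above 1, 7 had counting intervals above 1 and *C3* was at least 2-fold higher, beside 48.5%, 21.7% and 6.56% of all genes tested. The summed ratio was 1.28 (1.22 to 1.35), with *Dcn* at 1.57 and *Adamdec1*, a protease of gut stroma, at 0.97. The median log2 ratio was 0.51, and -0.34 when every barcode was thinned to 500 UMIs before the rule was applied, which also changed which barcodes were members. None of 26 measurable matrix genes passed 2-fold in either direction, beside 8.64% of all genes tested, and the median log2 ratio was -0.04. *Sparcl1*, a matrix glycoprotein of muscle, stood at 2019 and 1647 CPM in members, 9.16-fold and 11.0-fold above fibroblast barcodes, whereas *Mgp*, matrix Gla protein, stood at 511 and 693 CPM, 0.098 and 0.180 times the fibroblast level.

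RNA of other cells was present. Plasma cell genes summed to 4846 CPM in WT and 14286 CPM in A20ZF7 members, led by *Igha* at 2290 and 7379 CPM, and 10 A20ZF7 members held 91.0% of the *Igha* UMIs. The WT mice summed to 6159 and 14229 CPM over the list, so mouse 2 stood beside A20ZF7. The ratio of *Igha* was 3.22 and 1.33 when members with a UMI of another cell class's marker, such as *Ptprc*, *Epcam* or the plasma cell gene *Jchain*, were left out. Epithelial genes summed to 2506 and 233 CPM, led by *Fabp1* at 727 and 81.4 CPM, and all 5 measurable ones were at least 2-fold lower in A20ZF7 (2.08% of all genes tested were), as they were in free RNA. *Reg3b* and *Reg3g*, antimicrobial lectins of the epithelium, were among them, at ratios of 0.16 each, but 10 members held 96.1% and 94.7% of their WT UMIs. With members holding a UMI of another cell class's marker left out, the ratio of *Reg3b* was 3.69 (1.68 to 8.10). That of *Reg3g* was 2.77, with an interval that spans 1 (0.41 to 16.4), and those of *Fabp1* and *Fabp2* were 0.874 and 0.710. *Apoa1*, an apolipoprotein of enterocytes, stayed low, with 758 UMIs in WT and 2 in A20ZF7 members (ratio 0.0079, 0.00095 to 0.029), and a ratio no higher than 0.0111 under the settings run. Of the *Fabp1* UMIs in WT members, 86.3% lay in 10 members, and of the *Apoa1* UMIs, 83.2% lay in 10. Glial markers *S100b*, *Sox10* and *Gfap* were at 0 in both libraries, as was the B cell gene *Ms4a1*, where 3 UMIs would be 2.20 CPM in WT and 6.60 CPM in A20ZF7. Endothelial genes summed to 141 and 154 CPM, led by *Pecam1*. In the plot of gene lists, the contractile, excitation, mural and lamina propria muscle lists stand above free RNA in members, and the NF-κB and lymphocyte lists below it.

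**Figure D4:**
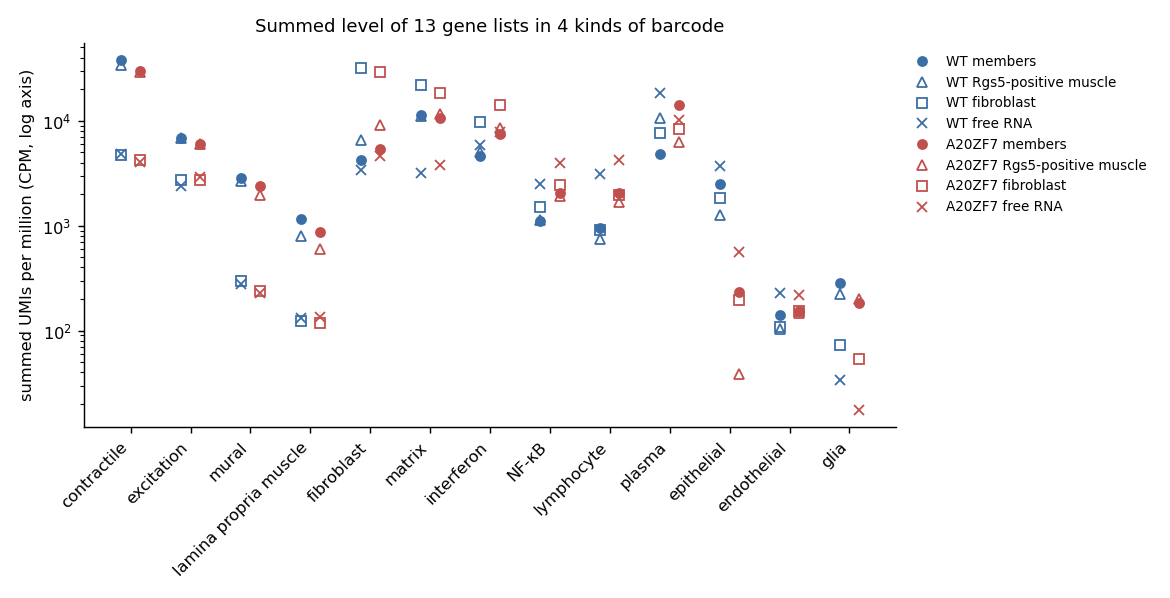
Summed CPM on a log axis of 13 gene lists in members, *Rgs5*-positive muscle, fibroblast barcodes and free RNA of each library. The contractile list stands at 37823 CPM in WT and 30122 CPM in A20ZF7 members, and the NF-κB list in members (1114 and 2054 CPM) lies below free RNA.

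Surface proteins were read in WT with 135 antibodies and 3 isotype controls. Over all antibody UMIs, 1 antibody was at least 2-fold higher in members than in other WT barcodes (0.741%) and 1 at least 2-fold lower (0.741%). The higher one was CD49a, integrin α1, a collagen and laminin receptor, with 356 UMIs per 10000 antibody UMIs in members and 142 in other barcodes, a ratio of 2.502 (2.48 to 2.52), and 338 in *Rgs5*-positive muscle. Its median was 68 UMIs per member and 23 per other barcode. Its transcript, *Itga1*, stood at 380 CPM in WT members and 95.3 CPM in WT fibroblast barcodes. Against fibroblast barcodes 1.48% of antibodies were at least 2-fold higher, CD49a and CD73, and 0.741% lower, CD54. CD73 (ratio 1.60 over other barcodes), ESAM (1.48), CD39 (1.44) and CD49d (1.25) followed. None of these was particular to members. Per 10000 antibody UMIs, *Rgs5*-positive muscle held 163 of CD73, 54.1 of ESAM and 449 of CD39, above the 106, 51.2 and 396 of members. For CD49d the values were 29.7 and 30.3. ESAM, an adhesion molecule of vessels and mural cells, had its transcript *Esam* at 134 CPM in members and 5.76 CPM in fibroblast barcodes. CD73 was higher by total than by median, at 9 UMIs per member against 10 per other barcode, so its UMIs were unevenly spread over members. The lowest were CD90.2 (0.465), CD5 (0.509), CD54 (0.542), CD38 (0.603) and CD4 (0.629), mostly proteins of lymphocytes, and CD90.2 was near parity with fibroblast barcodes at a ratio of 0.976. The isotype controls had ratios of 0.963 to 0.992.

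**Figure D5:**
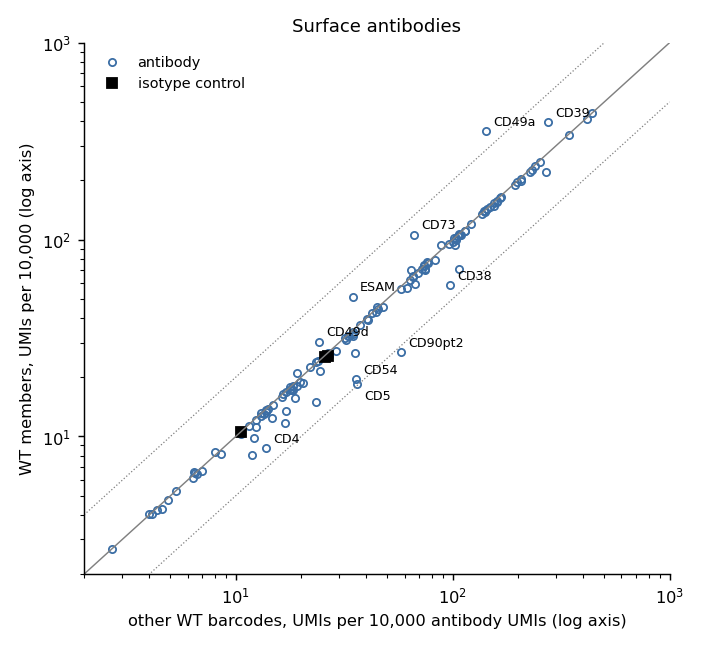
UMIs per 10000 antibody UMIs in WT members against other WT barcodes, both axes logarithmic, for 135 antibodies (circles) and 3 isotype controls (squares). The solid line marks equality and dotted lines 2-fold; CD49a lies above the upper line, at 356 against 142, and CD90.2 below the lower line.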

How the data were processed

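Lamina propria cells of 2 mice per genotype were hashtagged per animal and pooled, and 60000 cells per genotype were collected. The deposited files are raw UMI counts for each gene in each barcode. The authors used Cell Ranger and mm10. Their notes give version 7.1, and the file headers give 8.0.0 for gene expression. Antibody counts filed for A20ZF7 were identical to those of WT and were not used. Genes were matched by ID, and ratios use the 31950 shared IDs. Doublets were not removed, and hashtag calls used HTODemux (Seurat 5.3.0, R 4.3.3, quantile 0.99). Counts were summed over members. Genes needed 100 CPM and 20 UMIs in the higher library, and 2-fold was the call. The study ran tests over cells, which are not replicates, so none was run. Intervals are exact at 95% (binomial for shares, Poisson for CPM, conditional binomial for ratios), except the normal interval for the ratio of shares, and were tested on simulated counts. Python 3.11.15 with scipy 1.17.1 was used. Named genes were the 5 gate genes, the 10 highest and 10 lowest ratios (leaving out mitochondrial, ribosomal, immunoglobulin, sex-linked and unnamed genes and those not above free RNA), the 10 highest over fibroblast barcodes, and from each of 28 lists those past 2-fold and the 4 with most UMIs, as far as they are described. Some genes are not reported here. *Mylk*, *Cnn2*, *Dmd*, *Synpo2*, *Vcl*, *Filip1l*, *Pdgfrb*, *Itga1*, *Esam*, *Kcnj8*, *Abcc9*, *Csrp1*, *Synm*, *Tln1*, *Parva*, *Cxcl1*, *Cxcl2*, *Gbp2* and *Bst2* were named after their values were seen. Members and lists were chosen with earlier results of these data known.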

Additional observations from a re-analysis of the deposited data

How the results depend on the processing

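With a minimum of 1000 UMIs, members were 6.49% of WT and 1.23% of A20ZF7 barcodes (ratio 0.189), 63 genes were lower and 53.4% of WT members held *Actg2*. With at most 5% mitochondrial UMIs the shares were 1.83% and 0.410%, 108 genes were lower, 178 genes stood above A20ZF7 fibroblast barcodes, 2 antibodies were higher, 55.9% of WT members held *Actg2*, and median log2 ratios were -0.65 (transcription), -0.58 (mural) and 0.38 (interferon). With 15 gate UMIs the shares were 4.19% and 0.782% (ratio 0.187). With barcodes thinned to 500 UMIs they were 3.62% and 0.709% (ratio 0.196), 76 genes were lower and 35.3% of WT members held *Actg2*. In that setting *Reg3g* turned to 1.01 (0.019 to 12.6), and medians were -0.22 (contractile), -0.34 (fibroblast, reversed in sign) and -0.027 (early stress). With *Rgs5* at any count the shares were 7.87% and 1.64%, the matrix median was 0.089 and 2 antibodies were higher. Without members holding a UMI of another cell class's marker, such as *Ptprc*, *Epcam* or *Jchain*, they were 2.79% and 0.502% (ratio 0.180). There *Reg3g* turned to 2.77 (0.41 to 16.4) and *Reg3b* to 3.69 (1.68 to 8.10). With mitochondrial, ribosomal, immunoglobulin and gate genes left out of the CPM total, medians were 1.24 (NF-κB) and -0.045 (early stress). Without WT mouse 1 the WT share was 5.22%, and without mouse 2 it was 5.59% (ratio 0.186), with an NF-κB median of 1.23. At 300 CPM and 50 UMIs, 37 genes were higher and 16 lower, 139 (WT) and 101 (A20ZF7) stood above fibroblast barcodes and 197 and 148 above free RNA. At 30 CPM and 10 UMIs, the counts were 401, 246, 659 and 547, and 1523 and 1134. Of 37 named genes that were tested and past 2-fold, 9 stayed past it under every setting run and 28 did not. *Cxcl12*, *Tnfaip3*, *Birc3*, *Coro1a* and *Ramp1* were among the 28. The causes were not tested. Subtraction of free RNA was not run, because plasma cell RNA in A20ZF7 members exceeded free RNA (scale 1.40). No paired analysis was possible because there is 1 library per genotype.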

Other observations

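Immediate early and heat shock genes were abundant in members. The 25 genes of this list, which holds both kinds, summed to 21561 CPM in WT and 19768 CPM in A20ZF7 members, against 8885 and 9858 CPM in fibroblast barcodes and 11219 and 12092 CPM in free RNA. None of the 25 passed 2-fold between genotypes, beside 8.64% of all genes tested. *Fos*, a subunit of the AP-1 transcription factor, was at 2944 CPM in WT members (2386 in mouse 1, 2470 in mouse 2) and 2410 CPM in A20ZF7, which lay between the mice. *Junb*, another subunit, was at 1998 and 2307 CPM.

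Of 5 measurable TGF-β response genes none passed 2-fold, beside 8.64% of all genes tested, too few genes to set apart from that share. The list's median log2 ratio was 0.01. *Ccn1*, a matricellular protein, was at 445 and 449 CPM. Of 3 measurable genes around IL-22 none passed 2-fold either, beside the same 8.64%. *Stat3*, a transcription factor downstream of cytokine receptors, was at 228 and 378 CPM (ratio 1.66, 1.37 to 2.001). *Socs3*, a feedback inhibitor, was at 253 and 242 CPM. *Tnc*, the matrix protein tenascin C, was at 101 and 180 CPM in members and at 559 and 313 CPM in fibroblast barcodes.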
